A study of Drosophila melanogaster with 2 samples.

Results

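The genes described here store fat in the fly or release it. A list of 10 genes was drawn up: *bmm*, *Hsl*, *Lsd-1*, *Lsd-2*, *mdy*, *Lpin*, *Lip3*, *Lip4*, *mag* and *AkhR*. Members were the genes that the deposited expression table lists under exactly these symbols, which gave 6 of its 14794 genes: *bmm*, *Lsd-1*, *Lsd-2*, *mdy*, *Lip3* and *Lip4*. The other 4 are in the table under older symbols (*Hsl* as *CG11055*, *Lpin* as *CG8709*, *mag* as *CG5932*, *AkhR* as *GRHR*) and their values are given beside the 6.

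The table holds gene expression from RNA-Seq of poly(A)+ RNA of whole adult *Drosophila* males aged 1 to 3 days after eclosion. One library came from males homozygous for *heph2*, an allele of *hephaestus* that impairs spermatogenesis, and that gene encodes the polypyrimidine tract-binding protein. The other, the control, came from *heph2*/*TM3* males, which carry 1 copy of the same allele over the *TM3* balancer chromosome, so an effect of the balancer cannot be told apart from that of the second *heph2* copy. Each genotype is 1 library, so no difference can be set against replicates and no p-values are given.

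Flies store energy as triglyceride in lipid droplets, mainly in the fat body, which combines the roles of liver and adipose tissue. Acyltransferases build triglyceride in the endoplasmic reticulum, perilipins coat the droplet and govern access to it, and lipases release fatty acids. The adipokinetic hormone, secreted by the corpora cardiaca, acts through its receptor on fat body cells to mobilise the store, much as glucagon does in mammals.

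Values are FPKM, read fragments corrected for transcript length and library size, and a change is the log2 of the *heph2* value over the control value. A total of 11962 genes were compared, those that averaged 1 FPKM or more and were above 0 in each library, and all 10 genes were among them. The median change over these genes was 0.01, with quartiles at -0.24 and 0.29. Each change is given with a 95% exact (Clopper-Pearson) interval on estimated reads, which covers counting error only and not the difference between groups of flies. From the steps between low FPKM values, 1 *heph2* read was estimated to be worth 1.54 times a control read, a ratio found in 119 of 3901 low genes. Where several ratios were about equally common, the largest was taken. Scaling on mapped reads shifts every change by -0.28. That shift was computed from this estimate and the mapped reads of the study, so it depends on the estimate. If the estimate holds, the ratio contains the scaling of the FPKM values as well as depth. By the read numbers of the study the *heph2* library was the shallower one.

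The targeted gene *heph* was listed at 44.0 FPKM in the control and 27.2 in *heph2*, a change of -0.69, and 5.32% of genes had a lower change. This value covers the whole gene, upstream of the *P* element insertion included. Downstream of the insertion the study reports a severe loss of reads. It describes nearly all transcripts as truncated, with little full-length mRNA left, so -0.69 does not measure the loss of full-length mRNA. Markers of several tissues differed between the libraries. The 7 egg and yolk genes checked were all at least 2-fold lower in *heph2*, with a summed level of 276 FPKM in the control, a library labelled male, and 16.5 in *heph2*. Of the 7 male markers, 4 were higher and 3 lower. *Mst87F*, *Mst84Da*, *dj* and *roX2* changed by 0.76, 0.71, 0.58 and 0.11. *Acp26Aa*, *SP* (the sex peptide gene) and *roX1* changed by -0.73, -1.10 and -0.38. Their sums, 7633 and 7892 FPKM, were close because these changes went in both directions. Of 5 genes used as fat body markers, 4 were at least 2-fold higher in *heph2*: the larval serum protein genes *Lsp2* and *Lsp1beta*, and *Fbp1* and *Fbp2*. The other, *apolpp*, was at 64.1 FPKM in the control and 58.7 in *heph2* (-0.13). The 5 summed to 473 FPKM in the control and 1293 in *heph2*, a rise that came from those 4 and not from *apolpp*. All 3 flight muscle genes, *fln*, *Act88F* and *TpnC4*, were at least 2-fold higher (summed level 2103 and 10968). The study itself reports *Act88F* and *TpnC4* as upregulated, and *Vm34Ca*, one of the egg genes, as downregulated. The flight muscle and egg sets are therefore not independent checks. The part of these differences in the results was not tested. In whole flies, fewer cells of a type and less RNA per cell cannot be told apart.

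All 6 members had a higher FPKM in *heph2*, where 51.5% of all genes compared did, and the count was 5 of 6 when values were centred on ribosomal protein genes. Only *Lip3* was at least 2-fold higher, which 2.79% of all genes were, and none was at least 2-fold lower, which 2.44% were. At a threshold of 1.5-fold, 3 of 6 were higher (*Lip3*, *Lsd-1* and *mdy*) against 9.16% of all genes, and 0 were lower against 7.26%. The 3 became 1 when values were scaled to the same total (TPM), scaled on mapped reads or centred on ribosomal protein genes. The median change of the 6 was 0.61 and their range 0.44 to 2.31.

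Among the 4 genes under older symbols, *mag* and *AkhR* were higher and *Hsl* and *Lpin* lower, with a median change of 0.18. Over all 10 genes the summed level was 361 FPKM in the control and 519 in *heph2*, and the median change was 0.53. Of the 10, 8 were higher, against 51.5% of all genes, and 4 were at least 1.5-fold higher, against 9.16%. The 4 became 1 under TPM, mapped-read or ribosomal scaling and 3 against genes matched for length and level. Under centring on ribosomal protein genes 6 of the 10 were higher.

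**Figure D1:**
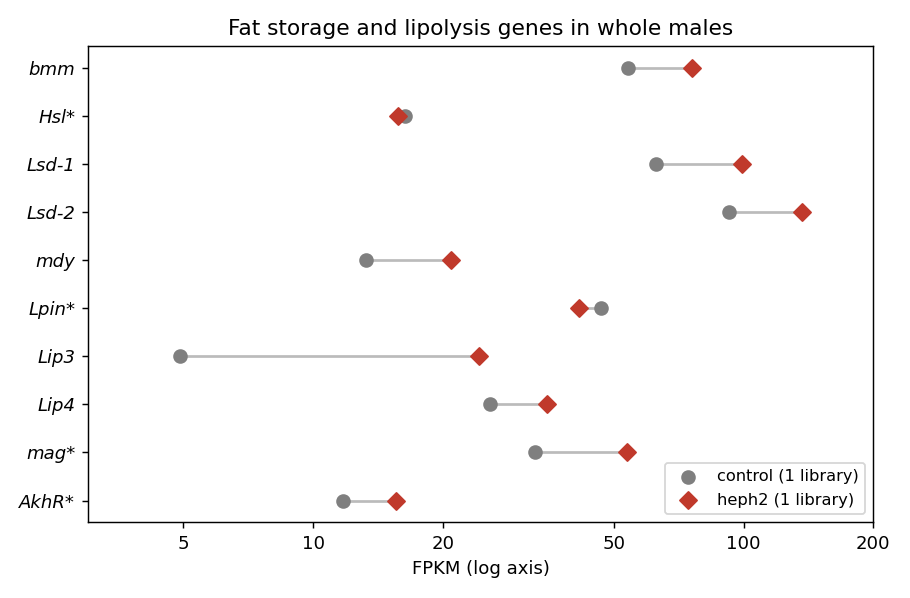
FPKM on a log axis for each of the 10 genes, with a circle for the control library and a diamond for the *heph2* library, joined by a line, and an asterisk for a gene listed under an older symbol. *Lip3* has the lowest control value, 4.91 FPKM, and the longest line, while *Lsd-2* is the most abundant gene in both libraries.

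The first step of triglyceride breakdown in the fly is carried out by brummer, the product of *bmm* and homologue of the mammalian adipose triglyceride lipase. *bmm*, alone in its locus at 3L:14769596-14779523 (FlyBase r5.44), was listed at 53.9 FPKM in the control and 75.9 in *heph2*. The change was 0.49 (1.41-fold, interval 0.44 to 0.55, from about 5435 and 4956 reads), and 87.7% of all genes had a lower one. The 10 genes compared within 50 kb of it had a median change of -0.15. *Hsl* encodes the hormone-sensitive lipase, the other main droplet lipase, and lies at 2R:16145157-16149241. It was listed at 16.4 FPKM in the control and 15.8 in *heph2*, a change of -0.05 whose interval, -0.15 to 0.04, includes 0. The ratio of *bmm* to *Hsl* within a library was 3.30 in the control and 4.82 in *heph2*.

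The pair of fly perilipins was higher in *heph2*. *Lsd-2* encodes perilipin 2, which shields stored fat from lipases, and was the most abundant of the 10 genes. Its level was 92.6 FPKM in the control and 137 in *heph2*, a change of 0.57 (1.48-fold, interval 0.52 to 0.61) with 8940 and 8569 estimated reads. *Lsd-2* lies at X:14965489-14970236, and 14 neighbours within 50 kb had a median change of 0.03.

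*Lsd-1* encodes perilipin 1, which promotes hormone-stimulated lipolysis at the droplet surface. Its level was 62.7 FPKM in the control and 99.3 in *heph2*, a change of 0.66 (1.58-fold, interval 0.60 to 0.73). It shares the locus 3R:19589579-19593174 with *CG10214* on the opposite strand, and 7.35% of its exon bases overlap that gene. *CG10214* itself changed by 0.54. The 2 perilipin genes kept a similar proportion, with *Lsd-2* at 1.48 times the level of *Lsd-1* in the control and 1.38 times in *heph2*.

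Other droplet and transport genes were mixed in direction. Of 11 genes compared in a list of lipoprotein, lipoprotein receptor, droplet and sterol transport genes, 4 were higher and 7 lower, where 51.5% of all genes were higher. Under TPM or mapped-read scaling 3 were higher and 8 lower, and 2 and 9 when centred on ribosomal protein genes. The median was -0.12, and against genes matched for length and level it was 0.02, with 6 higher and 5 lower. *Npc2a*, for a sterol-binding protein, was the only gene of the list changed at least 2-fold, from 221 to 513 FPKM (1.21), against 2.79% of all genes higher and 2.44% lower. Its transcript is short, 651 bases, and short transcripts as a class were higher in *heph2*, so against genes matched for length and level the change was 0.65. Named after their values were seen, the droplet protein gene *Jabba* was at 38.3 FPKM in the control and 60.8 in *heph2* (0.67), and *LpR1*, for a lipoprotein receptor and the lowest of the list, at 26.6 and 18.4 FPKM (-0.53).

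The last step of triglyceride synthesis, from diacylglycerol, is catalysed by diacylglycerol acyltransferases of the DGAT1 and DGAT2 classes. *mdy* (midway) encodes the DGAT1 enzyme. It was at 13.3 FPKM in the control and 20.9 in *heph2*, a change of 0.65 (1.57-fold, interval 0.54 to 0.77, 1235 and 1259 reads). Its entry, 2L:16802021-16826991, covers 4 genes, *mdy* included, and no exon of the other genes overlaps those of *mdy*. *Cse1* and *CG13280*, the other genes of the entry above the minimum, changed by -0.38 and -0.29. Against genes matched for length and level the change of *mdy* was 0.72.

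*Lpin* encodes lipin, the phosphatidate phosphatase that supplies diacylglycerol. It was at 46.6 FPKM in the control and 41.5 in *heph2*, a change of -0.17 (interval -0.22 to -0.11). Of its exon bases, 10.9% overlap *kermit* on the same strand in BDGP6, so the reads of the pair may be mixed there. In the r5.44 entry, however, *Lpin* is alone in its locus.

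Of the 3 DGAT2-like genes, 2 had the largest changes of the synthesis pathway. *Dgat2* (listed as *CG1942*) was at 8.39 FPKM in the control and 27.5 in *heph2*, a change of 1.71 (interval 1.55 to 1.88, about 431 and 915 reads). *CG1946*, beside it, was at 1.69 and 5.84 FPKM (1.79, interval 1.41 to 2.21). The third of them, *CG1941*, was at 13.8 and 13.4 FPKM (-0.04), although all lie within 6.92 kb on 2R. Near-identical stretches between such copies may share reads. Within a library, *Dgat2* was listed at 0.631 times the level of *mdy* in the control and 1.32 times in *heph2*.

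The triglyceride synthesis list leaves out *mdy* and *Lpin*, which were described above. Its 18 genes, all compared, held no other gene changed at least 2-fold. That made 2 of 18 at least 2-fold higher, against 2.79% of all genes, and 0 lower, against 2.44%. Altogether 7 were higher and 11 lower, where 51.5% of all genes were higher, with a median change of -0.08, below that of all genes. Under TPM, mapped-read or ribosomal scaling 3 were higher and 15 lower, and against genes matched for length and level 8 and 10. By step of the pathway, the glycerol-3-phosphate acyltransferase genes *mino* and *Gpat4* changed by -0.03 and -0.13. The genes of the next acyltransferase step were mixed: *Agpat2*, *Agpat3* and *Agpat4* changed by 0.16, 0.51 and 0.26, and *Agpat1* by -0.35. The genes of fatty acid synthesis *ACC*, *FASN1* and *FASN2* changed by -0.21, -0.36 and -0.61. Their transcripts are long, and against genes matched for length and level these values were -0.09, -0.24 and -0.49. *SREBP*, for the transcription factor that activates them, changed by -0.40. *FASN2* was the only gene of the list at least 1.5-fold lower, a count of 1 that became 0 after that matching, 5 under TPM or mapped-read scaling and 7 under centring on ribosomal protein genes.

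**Figure D2:**
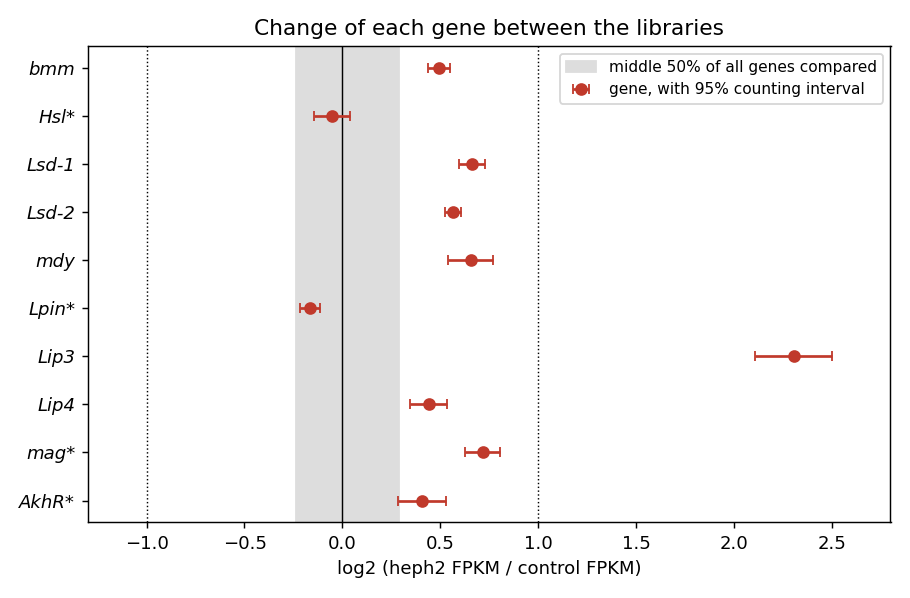
Log2 of *heph2* over control FPKM for each of the 10 genes (points) with 95% counting intervals (bars), beside the middle 50% of all genes compared (grey band, -0.24 to 0.29) and dotted lines at 2-fold. *Lip3* alone lies past 2-fold, at 2.31, and *Hsl* alone has an interval that includes 0.

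*AkhR* encodes the receptor of the adipokinetic hormone, a G protein-coupled receptor through which the hormone calls up stored fat. It lies alone at 2L:6711282-6716183. Its level was 11.7 FPKM in the control and 15.5 in *heph2*, a change of 0.41 (1.33-fold, interval 0.28 to 0.53) that became -0.03 when centred on ribosomal protein genes. The hormone gene *Akh* was at 28.8 and 33.1 FPKM (0.20), with an interval, -0.01 to 0.41, that includes 0. *Akh* was at -0.24 when centred on ribosomal protein genes, -0.07 on mapped reads and -0.06 against genes matched for length and level.

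Of the 18 genes compared in the adipokinetic hormone pathway, *AkhR* included, none changed at least 2-fold, against 2.79% of all genes higher and 2.44% lower. There were 7 higher and 11 lower, where 51.5% of all genes were higher, with a median of -0.13. These counts became 3 and 15 under TPM or mapped-read scaling and 1 and 17 when centred on ribosomal protein genes. Against genes matched for length and level they were 9 and 9, with a median of 0.0049. The highest was *tobi*, an alpha-glucosidase gene that the hormone and insulin pathways regulate, at 152 FPKM in the control and 235 in *heph2* (0.63). The lowest was *Itpr*, for the receptor that releases calcium from the endoplasmic reticulum, at -0.41. Its transcript is long, and against genes matched for length and level it was at -0.11, where *Stim*, for a calcium sensor of the same membrane, was lower at -0.23.

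*Lip3*, *Lip4* and *mag* belong to the acid lipase family, secreted or lysosomal enzymes related to the mammalian gastric and lysosomal acid lipases. *Lip3* was at 4.91 FPKM in the control and 24.3 in *heph2*, from about 282 and 901 reads. The change, 2.31 (4.94-fold, interval 2.11 to 2.50), was exceeded by only 6 of the genes compared, and it was between 1.86 and 2.33 under the 4 other scalings and against genes matched for length and level. *Lip3* is a single-transcript gene at 3R:9195391-9197626, and 7.46% of its exon bases overlap *CheA87a* on the opposite strand. That gene moved the other way, from 23.4 to 12.6 FPKM (-0.90). The 15 neighbours compared within 50 kb had a median change of 0.15. Of them 3 changed at least 2-fold, against 2.79% of all genes higher and 2.44% lower by that much.

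*mag* (magro) encodes a lipase made in the gut that digests dietary triglyceride and cholesterol esters. Its level was 32.7 FPKM in the control and 53.7 in *heph2*, a change of 0.72 (1.64-fold, interval 0.63 to 0.81). The locus entry, 3L:20446393-20457448, covers 7 genes, and no exon of another gene overlaps those of *mag*. The 7 gut digestive enzyme genes used as markers were all higher too, with a median of 0.38 and summed levels of 2468 and 3294 FPKM. Against genes matched for length and level their median was 0.03, where *mag* was at 0.63. Centred on ribosomal protein genes, *betaTry*, *Jon65Aiii*, *Amy-p* and *Amy-d* were below 0 and the other markers above. The part of these markers in the value of *mag* was not tested.

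*Lip4* was at 25.8 FPKM in the control and 35.0 in *heph2*, a change of 0.44 (1.36-fold, interval 0.35 to 0.53) that became -0.00084 when centred on ribosomal protein genes. It stands at 2L:10529417-10531561, at the edge of a cluster of related genes. Because *Lip3* differed more, the spread between the 3 enzymes was smaller in *heph2*. *mag* was at 6.66 times the level of *Lip3* in the control and 2.21 times in *heph2*, and *Lip4* at 5.25 and 1.44 times.

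The wider family was split. Of 23 genes, 22 were compared (*Lip1*, at 0.582 and 0.308 FPKM, was under the minimum), 13 were higher and 9 lower, with a median of 0.10, and the median was -0.18 to -0.34 when values were scaled on mapped reads, scaled to TPM or centred on ribosomal protein genes. Changes of at least 2-fold were found in 8 of 22, with 3 higher and 5 lower, against 2.79% and 2.44% of all genes. The 3 higher were *Lip3*, *CG8093* (49.2 to 131 FPKM, 1.41) and *CG31089* (0.943 to 1.92, 1.03), and the last 2 were under 2-fold, at 0.97 and 0.59, when centred on ribosomal protein genes.

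The 5 lower were *CG11598*, *CG17097*, *CG31872*, *CG18284* and *CG11608*. *CG11598* was at 49.4 FPKM in the control and 1.54 in *heph2* (-5.00). *CG17097*, the most abundant gene of the family in both libraries, was at 549.9 and 141 FPKM (-1.96). *CG31872* was at 218 and 64.3 FPKM (-1.76), *CG18284* at 175 and 62.4 (-1.49), and *CG11608* at 16.2 and 7.45 (-1.12). The summed level of the family was 1233 FPKM in the control and 612 in *heph2*. Without *CG17097*, *CG31872* and *CG18284*, a trio chosen after the values were seen, it was 290 and 344.

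**Figure D3:**
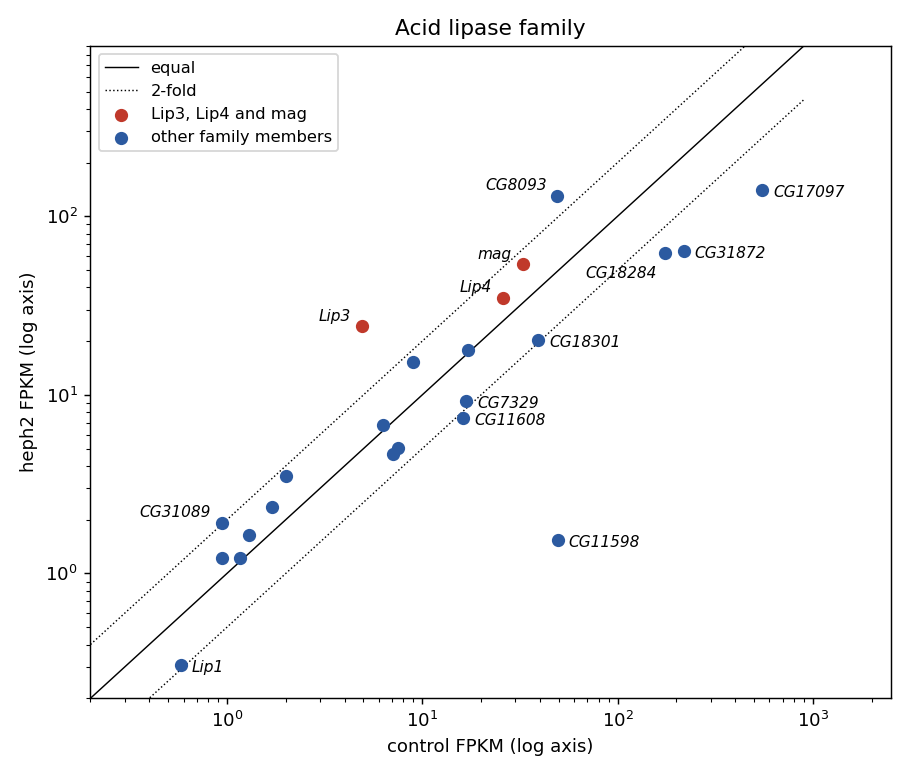
FPKM of the 23 acid lipase family genes in the control (x axis, log) and *heph2* (y axis, log), 1 point per gene, with *Lip3*, *Lip4* and *mag* in red, a solid line of equality and dotted lines at 2-fold. *Lip3* stands above the upper dotted line, and 5 genes from *CG11608* to *CG17097* are below the lower one.

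Part of the family lies in clusters. The cluster on 2L that starts with *Lip4* holds 10 family genes in 177 kb, of which 9 were compared, 4 higher and 5 lower, with a median of -0.87. Under centring on ribosomal protein genes all 9 were lower. *CG18301* starts 290 bases after *Lip4* and was at 39.2 FPKM in the control and 20.4 in *heph2* (-0.94), opposite in direction to *Lip4*. The 5 genes of a cluster of 9.21 kb on 3R had a median of -0.60, with 1 higher and 4 lower, and all 5 were lower under centring on ribosomal protein genes. The 8 genes in neither cluster, *Lip3* and *mag* among them, were all higher, by 0.37 to 2.31 (7 of 8 under centring on ribosomal protein genes). The clusters and these counts were defined after the values were seen and were not tested.

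The oxidation of released fatty acids was the remaining step examined. Of 17 oxidation genes compared, 15 were higher in *heph2* and 2 lower, where 51.5% of all genes were higher, with a median of 0.34. When centred on ribosomal protein genes 4 of 17 were higher and the median was -0.10. None changed at least 2-fold. At least 1.5-fold higher were 4, against 9.16% of all genes, and 0 under TPM, mapped-read or ribosomal scaling or against genes matched for length and level. The highest was *scu*, for a mitochondrial hydroxyacyl-CoA dehydrogenase, at 157 FPKM in the control and 269 in *heph2* (0.77). The lowest was *CG4592*, for an enoyl-CoA isomerase-type enzyme, at -0.27.

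**Figure D4:**
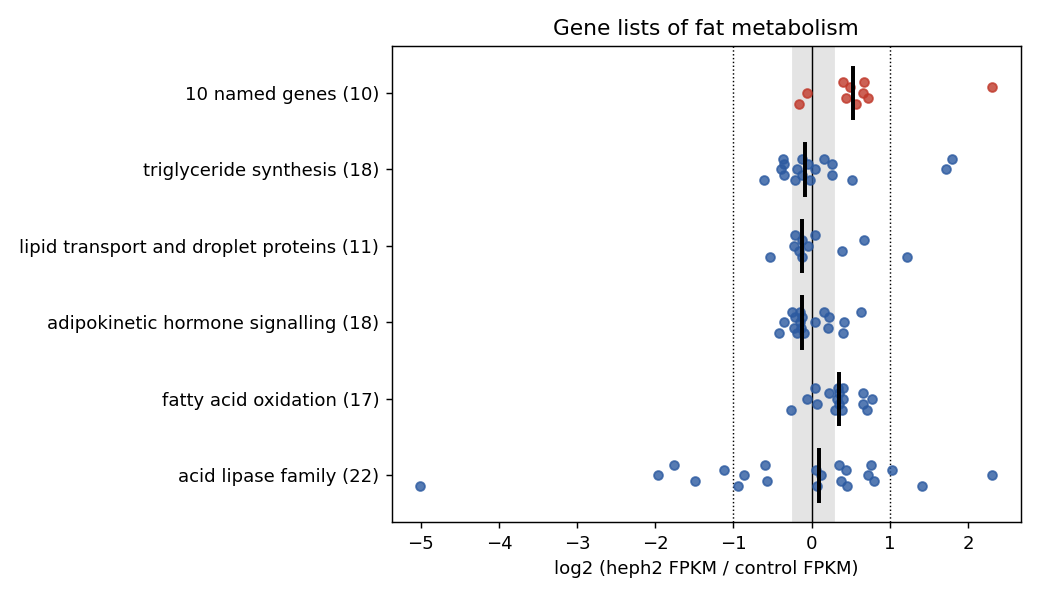
Log2 of *heph2* over control FPKM for each gene (points) of the 10 named genes and of 5 lists of fat metabolism genes, with the number compared in parentheses, the list median as a black bar, the middle 50% of all genes as a grey band and dotted lines at 2-fold. The medians run from -0.13 to 0.53, and the acid lipase family has the widest spread, from -5.00 to 2.31.

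A scaling that multiplies a whole library keeps the order of the 10 changes and shifts their distance from 0. Scaling each library to the same total (TPM) or on mapped reads lowered every change by 0.28, and centring on ribosomal protein genes, whose own median change was 0.44, lowered them by 0.44. Under that centring the change was 0.05 for *bmm*, 0.22 for *Lsd-1*, 0.12 for *Lsd-2*, 0.21 for *mdy*, 0.28 for *mag* and 1.86 for *Lip3*. *Hsl* and *Lpin* were then at -0.50 and -0.61. Only *Lip3* was at least 1.5-fold higher under these 3 scalings, and *Lpin* was at least 1.5-fold lower under the last.

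Transcript length also moved with the change. Genes with transcripts of up to 1000 bases had a median of 0.34, those over 3000 bases -0.20, and those of 1400 to 2400 bases, where 8 of the 10 genes lie, -0.00. Against genes matched for length and level, the 6 members had a median of 0.48, and *Hsl* was at 0.07.

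**Figure D5:**
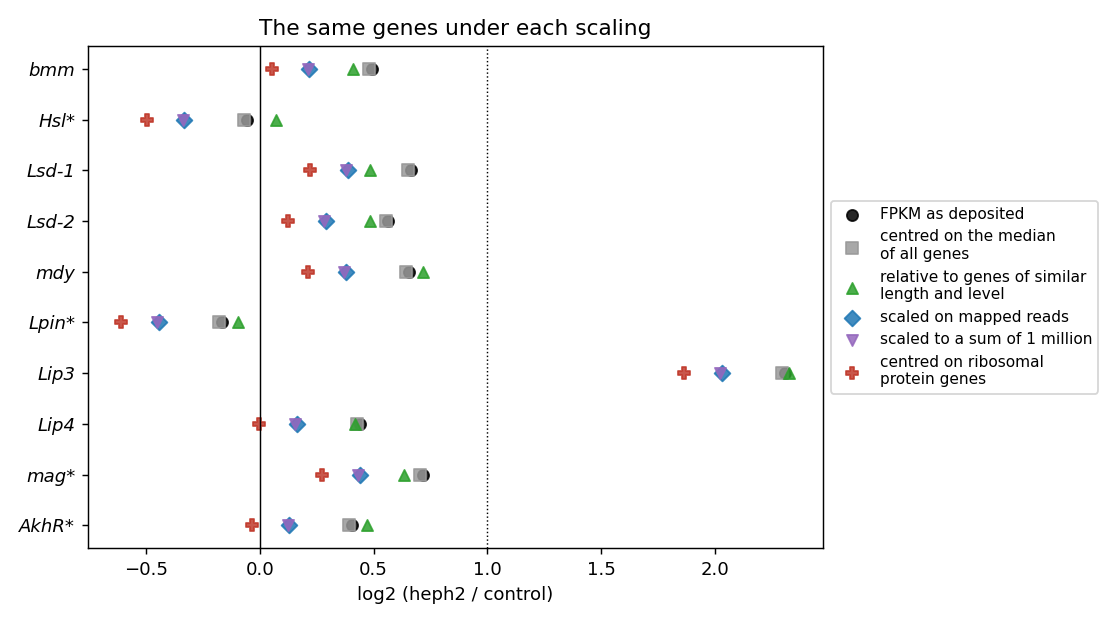
Log2 of *heph2* over control for the 10 genes as deposited, under 4 scalings and against genes matched for length and level, 1 marker each, with a dotted line at 2-fold and an asterisk for a gene listed under an older symbol. *Lip3* stays past 2-fold throughout (1.86 to 2.33), while *Lip4* and *AkhR* reach -0.00084 and -0.03 when centred on ribosomal protein genes.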

How the data were processed

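Single reads of 50 bases were mapped with TopHat 2.0.4 to FlyBase r5.44, and Cufflinks 2.0.0 gave 1 FPKM value per gene and library, which the authors deposited. A log2 ratio column of their own was not used. Per the tool list, Cuffdiff was also run.

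The log2 ratio was computed from the deposited FPKM with Python 3.11.15, numpy 2.4.6, pandas 2.3.3 and scipy 1.17.1, with no pseudocount, over genes that averaged 1 FPKM or more and were above 0 in each library. Reads were estimated from the spacing of low FPKM values (0.0215 FPKM per read on 1 kb in the control, 0.0332 in *heph2*) and transcript lengths from BDGP6, with an assumed fragment length of 200.0 ± 80.0 bases (mean ± SD). The fit was checked on single-transcript genes alone in their locus with few estimated reads. In the control 60.9% of 412 such genes, and in *heph2* 62.2% of 484, were within 0.1 of a whole read. With that fit, no count test was run. Genes with several transcripts, as most of those described are, were not part of this check. Scripts were tested on simulated data. Exon overlaps between genes were taken from BDGP6 and not from r5.44. The study does not state that the libraries kept the strand, so overlaps on either strand may mix reads. Locus starts count from 0 in the table, and 1 was added. Figures were drawn with matplotlib 3.10.9.

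All 10 listed genes are described, and from each other list the genes changed at least 2-fold or, with none, the extreme in each direction. *Sik3* and *whd* were not matched. Pathway steps, *Akh*, *Jabba*, *LpR1*, *Stim*, *CG1941*, *CG18301* and *Lip1* were named outside this rule. The members and lists were chosen with earlier results of these data known. Alternatives were pseudocounts of 0.1 and 1, no minimum or 5 FPKM, 4 other scalings, genes matched for length and level, and genes alone in their locus.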

Additional observations from a re-analysis of the deposited data

How the results depend on the processing

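No paired analysis was possible because each genotype had 1 library, and leaving out a replicate was not possible for the same reason. With only the genes alone in their locus, *Lip3* drops out and 0 genes were at least 2-fold higher, among the 6 members and among the 10 genes. The median of the 6 members was 0.33 scaled to TPM (the same total in each library) and 0.33 on mapped reads, 0.17 centred on ribosomal protein genes, 0.48 against genes matched for length and level and 0.49 for genes alone in their locus. For the 10 genes these were 0.25, 0.25 and 0.089, and 0.42 for genes alone. At TPM, ribosomal and mapped-read scaling, the medians were -0.36, -0.52 and -0.36 for triglyceride synthesis, -0.41, -0.57 and -0.40 for adipokinetic hormone signalling, -0.41, -0.57 and -0.40 for transport and droplet genes, 0.060, -0.10 and 0.067 for fatty acid oxidation, and -0.19, -0.34 and -0.18 for acid lipases. Against genes matched for length and level they were 0.0049 for hormone signalling, 0.017 for transport, 0.16 for oxidation and 0.22 for acid lipases, which were at -0.59 with a minimum of 5 FPKM and -0.26 for genes alone in their locus. Among the 10 genes and 9 further acid lipase or DGAT2-like genes, single genes turned in 3 cases, *Hsl* at 0.071 (length and level) and *Lip4* and *AkhR* at -0.00084 and -0.034 (ribosomal). Pseudocounts of 0.1 and 1 moved none of the list medians by over 0.1. Over all 86 list genes compared, 36 changed direction under at least 1 scaling or the matching. A scaling shifts all genes equally by construction, while the matching for length and level shifts each gene differently. At 1 library per genotype, the intervals cover counting error and nothing of the variation between flies.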
